A study of Mus musculus with 4 samples.

Results

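Chemokines and their receptors were read on 4 whole-transcript arrays of cells sorted from mouse small intestine, as 57 genes among 30145 with a single gene symbol. The members are all genes of the C, CC, CXC and CX3C ligand families, their receptors, the atypical receptors, Ccrl2, Pf4 and Ppbp that the array annotation gives alone for a feature. They comprise 37 ligands and 20 receptors, each read by 1 feature. They were chosen by gene symbol and not by measured value, although earlier results of these data were known at the time.

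The groups were Ehf-/- Lgr5GFP+ intestinal stem cells (ISCs), LncGata6Mut Lgr5GFP+ ISCs, wild-type Lgr5GFP+ ISCs and wild-type Lgr5GFP- non-ISCs, with 1 array each. All cells were labelled as coming from 8-week-old Lgr5GFP-CreERT2 mice, in which the promoter of Lgr5 drives GFP and an inducible Cre. Ehf encodes an epithelial transcription factor of the ETS family, and LncGata6 is a long noncoding RNA next to Gata6. The design text speaks of isolated crypts, how the 2 alleles were made is not given in the sources used here, and the collection protocol names an ILCreg gate beside the Lgr5 sort. There were no replicates, so no value below has an error, no difference was tested, and precision is limited by how few arrays there are.

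Chemokines are small secreted or membrane-bound proteins that guide moving cells through G protein-coupled receptors. Epithelial cells of the gut make ligands that draw lymphocytes to the mucosa, while neutrophils, monocytes, B cells and T cells each carry their own receptors. Atypical receptors bind ligands without G protein signalling and so shape their gradients.

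Values are log2 levels, and a value is called detected here when it reached the 95th percentile of the 5222 negative control features of its array. This control limit was 5.19 for Ehf-/- ISCs, 5.31 for LncGata6 mutant ISCs, 5.62 for wild-type ISCs and 5.16 for non-ISCs. Genes count as higher or lower where 2 arrays differ by at least 1 (log2), which is 2-fold, and the brighter value is detected. A fold is brighter over dimmer, and "at least" marks a dimmer value that was replaced by its control limit.

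The labels were checked first. Ehf read 3.03 in Ehf-/- ISCs, 5.09 in LncGata6 mutant ISCs, 6.99 in wild-type ISCs and 3.75 in non-ISCs, so it was undetected on the Ehf-/- array and also on 2 others. Whether its feature lies in the deleted stretch is not known here, and no feature was matched to LncGata6. Lgr5, the R-spondin receptor that defines the sort, read 2.79 in Ehf-/- ISCs, 3.03 in LncGata6 mutant ISCs, 9.41 in wild-type ISCs and 3.03 in non-ISCs, so only the wild-type ISC array detected it. Of 8 general epithelial markers, 0 were detected in Ehf-/- ISCs and all 8 on each of the other arrays. All 8 neutrophil markers were detected in Ehf-/- ISCs, 0 in both LncGata6 mutant and wild-type ISCs, and 5 in non-ISCs. T cell and intraepithelial lymphocyte markers were detected in 5, 9, 2 and 4 of 10 cases on the arrays of Ehf-/- ISCs, LncGata6 mutant ISCs, wild-type ISCs and non-ISCs. Liver and kidney markers were detected in 5 of 5 and 6 of 6 cases in non-ISCs. The arrays are named by their labels throughout, and in such mixtures fewer cells of a type and less RNA per cell cannot be told apart.

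Sequence before the gene start is shown for 8 members to compare promoter letters. Ccrl2, Ccl9, Ccl28, Ppbp and Cxcr2 were called in comparisons below. Cxcl1, Cxcl2 and Cxcl3 were detected on no array and lie with Ppbp in 1 run of adjacent members on chromosome 5. RefSeq (GRCm38.p6) gave promoter windows for 43 of the 57 members, 49 windows in all, each 300 bases long. The strings searched on both strands were GGNNTTTCC, the core of a kappaB site bound by the inflammatory factor NF-kappaB, TATAAA, the TATA box, and CCGGAAG, a core bound by ETS factors. The kappaB letters stood in 10 of 49 member windows (20.4%), against 5.82% of 32851 windows of all genes. TATAAA stood in 26.5% of member windows, against 13.6%, and the ETS letters in 4.08%, against 8.86%. The only member with the ETS letters was Ccl27a. In Ccl9 the TATA letters overlap their own reverse complement. A match is a description of letters and not a measured site.
The 150 bases before the start are given 5′ to 3′ on the gene's strand, in lower case with kappaB and TATA letters in capitals. Ccrl2 is shown at 1 of its 3 starts, picked because it is the only one whose window holds the kappaB letters.
Ccrl2, chr9:111057519-111057668, minus strand: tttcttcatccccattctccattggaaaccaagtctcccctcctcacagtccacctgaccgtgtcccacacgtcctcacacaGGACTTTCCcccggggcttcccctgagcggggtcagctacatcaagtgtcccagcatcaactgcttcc
Ccl9, chr11:83578637-83578786, minus strand: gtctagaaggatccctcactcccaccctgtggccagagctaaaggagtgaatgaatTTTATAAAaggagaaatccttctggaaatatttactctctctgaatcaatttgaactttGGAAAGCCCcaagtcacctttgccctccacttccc
Cxcl1, chr5:90891095-90891244, plus strand: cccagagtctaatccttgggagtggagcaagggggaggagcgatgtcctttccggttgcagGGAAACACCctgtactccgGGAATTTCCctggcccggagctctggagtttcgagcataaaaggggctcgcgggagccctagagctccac
Cxcl2, chr5:90903749-90903898, plus strand: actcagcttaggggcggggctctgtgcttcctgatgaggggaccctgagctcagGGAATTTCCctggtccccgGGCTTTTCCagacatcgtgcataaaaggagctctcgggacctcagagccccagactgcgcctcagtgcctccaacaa
Cxcl3, chr5:90785951-90786100, plus strand: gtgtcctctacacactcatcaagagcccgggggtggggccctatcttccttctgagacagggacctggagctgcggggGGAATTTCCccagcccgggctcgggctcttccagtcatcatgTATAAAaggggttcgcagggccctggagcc
Ccl28, chr13:119623669-119623818, plus strand: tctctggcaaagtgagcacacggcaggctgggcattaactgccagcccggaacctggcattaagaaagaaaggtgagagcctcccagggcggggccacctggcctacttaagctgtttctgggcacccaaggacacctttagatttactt
Ppbp, chr5:90768368-90768517, plus strand: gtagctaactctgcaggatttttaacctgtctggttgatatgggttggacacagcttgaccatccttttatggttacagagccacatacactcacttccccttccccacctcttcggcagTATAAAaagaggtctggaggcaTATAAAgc
Cxcr2, chr1:74153844-74153993, plus strand: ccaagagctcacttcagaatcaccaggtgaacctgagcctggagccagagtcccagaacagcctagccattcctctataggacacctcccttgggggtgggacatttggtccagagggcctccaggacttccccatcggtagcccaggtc

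Of the 57 members, 1 was detected on all 4 arrays, 18 on 1 to 3 arrays and 38 on none. The gene detected throughout was Ccl5, a ligand that activated T cells and natural killer cells release. Members were detected in 9, 9, 10 and 8 cases in Ehf-/- ISCs, LncGata6 mutant ISCs, wild-type ISCs and non-ISCs, or 15.8%, 15.8%, 17.5% and 14% of them. Over all genes those shares were 17.6%, 20.3%, 16.7% and 26.7%. The arrays differed in how many ligands and receptors they detected. Ehf-/- ISCs had 4 ligands and 5 receptors detected, LncGata6 mutant ISCs 8 and 1, wild-type ISCs 7 and 3, and non-ISCs 8 and 0. These counts also depend on the control limits, from 5.16 in non-ISCs to 5.62 in wild-type ISCs. Cxcl3 was undetected at 5.56 in wild-type ISCs, while Cxcl14 was detected at 5.20 in non-ISCs.

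The 38 members detected on no array read between 1.00 and 5.56, and a low value there does not show that a gene is silent. The ligands among them were Ccl1, Ccl2, Ccl4, Ccl7, Ccl8, Ccl11, Ccl12, Ccl17, Ccl19, Ccl20, Ccl22, Ccl24, Ccl26, Ccl27a, Cxcl1, Cxcl2, Cxcl3, Cxcl5, Cxcl10, Cxcl11, Cxcl15, Cxcl17, Pf4 and Xcl1. The receptors were Ccr2, Ccr3, Ccr4, Ccr6, Ccr8, Ccr9, Ccr10, Cxcr1, Cxcr3, Cxcr6, Xcr1, Cx3cr1, Ackr1 and Ackr4. They include all 6 type 2 and eosinophil ligands, such as Ccl11, which draws eosinophils, with 3.02 in Ehf-/- ISCs, 3.52 in LncGata6 mutant ISCs, 4.64 in wild-type ISCs and 2.85 in non-ISCs. Ccl2, the main monocyte ligand, read 3.73, 2.82, 3.43 and 2.76 on the same arrays. Ccl20, an epithelial ligand of Ccr6, read 2.34, 3.29, 3.68 and 2.80. Cx3cr1, the receptor of Cx3cl1 on gut macrophages, read 3.56, 3.75, 4.14 and 3.70. None of these 4 genes reached a control limit, so their order between arrays was not read. Neighbouring members with similar sequence, such as Ccl6 and Ccl9 or Cxcl1 and Cxcl2, may share signal between their features.

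**Figure D1:**
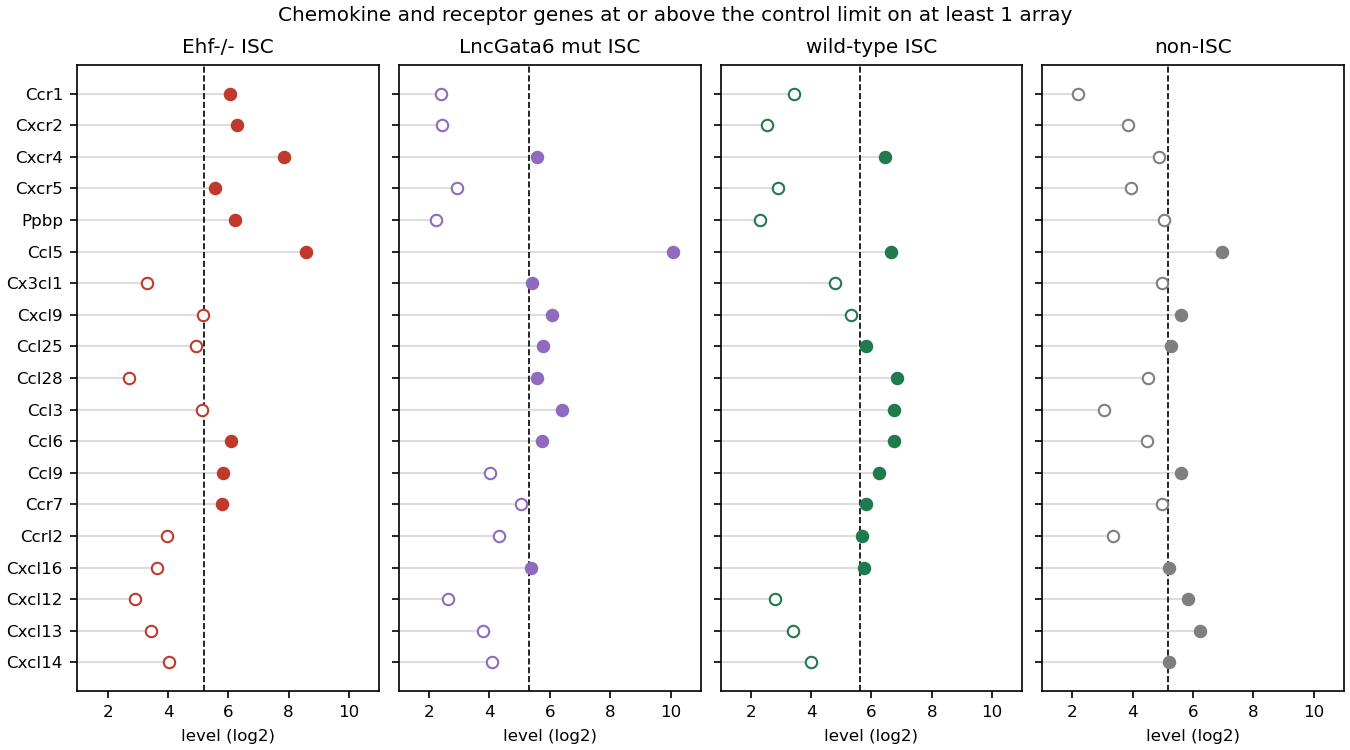
Level (log2) of the 19 members detected on at least 1 array, with 1 panel per array and 1 point per gene. Filled points reach the control limit (dashed line) and open points do not. Receptors are filled in 5 cases in Ehf-/- ISCs and in 0 in non-ISCs.

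Wild-type ISCs were set against non-ISCs to ask which members differ between these arrays. Hepatocyte and kidney tubule markers, given below, were brighter on the non-ISC array, so the arrays differ in more than the Lgr5 sort. The wild-type ISC array stood higher in a mucosal ligand, 2 inflammatory CC ligands and 2 receptors, and lower in the ligands Cxcl12, Cxcl13 and Cxcl14. Higher were Ccl28, Ccl3, Ccl6, Ccrl2 and Cxcr4, which is 5 of 57 members against 3.04% of all genes. The lower ligands are 3 of 57 members, a smaller share than the 7.36% of all genes. Both directions together made 8 of 57 members, against 10.4% of all genes. The median difference was 0.13 over members and -0.11 over all genes.

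Ccl28, an epithelial ligand of Ccr10 and Ccr3 that draws antibody-secreting cells to mucosa, read 6.85 in wild-type ISCs and 4.50 in non-ISCs, at least 3.23-fold higher. Ccl3, a ligand of Ccr1 made by leukocytes, read 6.74 in wild-type ISCs and 3.06 in non-ISCs, at least 2.99-fold higher. Ccl6, a mouse ligand of Ccr1, read 6.76 and 4.47 in the same order, at least 3.04-fold higher. All 3 were therefore detected in wild-type ISCs and not in non-ISCs. Cxcr4, the receptor of Cxcl12, read 6.45 in wild-type ISCs and 4.89 in non-ISCs, at least 2.46-fold higher. Ccrl2, a receptor-like protein that presents chemerin, read 5.68 in wild-type ISCs and 3.36 in non-ISCs, at least 1.43-fold higher, and lay only 0.052 above its limit. General epithelial markers averaged 8.92 in wild-type ISCs and 7.11 in non-ISCs, with 6 of 8 called higher and a summed linear level of 4780 and 1337. Macrophage and monocyte markers averaged 5.50 in wild-type ISCs and 5.95 in non-ISCs, with 1 of 7 called higher (Lyz2) and 1 lower (Csf1r). Their summed linear level, 1781 and 836 in the same order, went the other way from the averages. The part of both marker lists in the higher members was not tested.

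Cxcl12, which stromal and endothelial cells make, read 2.81 in wild-type ISCs and 5.84 in non-ISCs, at least 1.16-fold lower. Cxcl13, the B cell follicle ligand of Cxcr5, read 3.40 in wild-type ISCs and 6.22 in non-ISCs, at least 1.51-fold lower. Cxcl14, a constitutive ligand of epithelia and fibroblasts, read 4.01 in wild-type ISCs and 5.20 in non-ISCs, with no fold because the limit of the wild-type array lay above both. These ligands were detected on the non-ISC array alone. Stromal markers averaged 4.07 in wild-type ISCs and 5.33 in non-ISCs, with 4 of 5 called lower, and endothelial markers averaged 5.11 and 5.83, with 3 of 6 called lower. Linear levels summed over these lists were 101 and 290 for stroma and 269 and 410 for endothelium in the same order. Hepatocyte markers averaged 3.55 and 11.41 and kidney tubule markers 2.52 and 9.57, and B and plasma cell markers 5.32 and 5.72. The part of these cells in the lower ligands was not tested.

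The neutrophil-attracting ligands Cxcl1, Cxcl2 and Cxcl3, which activate Cxcr2, were detected on no array, so no order between arrays is read from them. Cxcl1 read 5.11 in wild-type ISCs and 3.53 in non-ISCs. Cxcl2 read 5.24 in wild-type ISCs and 2.37 in non-ISCs. Cxcl3 read 5.56 in wild-type ISCs and 4.46 in non-ISCs. They lie in 1 run of 7 adjacent members with Cxcl5, Ppbp, Pf4 and Cxcl15 on chromosome 5 of the RefSeq assembly, and share the kappaB letters printed above. With the 75th percentile of all genes as the limit (4.99 in wild-type ISCs) these 3 genes and Ackr1 would also be called. The higher count then becomes 9 members, against 3.85% of all genes.

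LncGata6 mutant ISCs were set against wild-type ISCs to ask which members differ in cells with this mutation. The largest difference of any member in this comparison was the higher level of Ccl5, while Ccl28, Ccl6, Ccl9 and Ccrl2 were lower. This is 1 of 57 members higher, against 2.61% of all genes, and 4 of 57 lower, against 2.56%. Both directions made 5 of 57 members, against 5.17%. The median difference was -0.12 over members and -0.06 over all genes.

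Ccl5 read 10.08 in LncGata6 mutant ISCs and 6.66 in wild-type ISCs, 10.6-fold higher. T cell and intraepithelial lymphocyte markers averaged 8.22 in LncGata6 mutant ISCs and 4.50 in wild-type ISCs, with 9 of 10 called higher, and their summed linear level was 6005 and 346. The T cell co-receptor subunit Cd3e, for one, read 8.71 in LncGata6 mutant ISCs and 5.06 in wild-type ISCs. Their part in the Ccl5 difference was not tested. Of the members that lymphocytes use, Xcl1, Ccr9 and Cxcr6 differed by over 1 (log2) but were under the limit on both arrays. They were therefore not called, and no order between arrays is read from them. Xcl1, a ligand released by T cells and natural killer cells, read 5.31 in LncGata6 mutant ISCs (-0.005 relative to the limit) and 2.96 in wild-type ISCs. Ccr9, the gut-homing receptor of Ccl25, read 4.77 in LncGata6 mutant ISCs and 3.52 in wild-type ISCs. Cxcr6, the receptor of Cxcl16, read 4.28 in LncGata6 mutant ISCs and 3.11 in wild-type ISCs. Cxcr4 and Ccr7, which lymphocytes also use, went the other way and were not called. Cxcr4 read 5.59 in LncGata6 mutant ISCs and 6.45 in wild-type ISCs, detected on both arrays. Ccr7 read 5.04 (under the limit) and 5.81 in the same order, and Cxcr5 read 2.92 on both.

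Ccl9, a ligand of Ccr1 in mice, read 4.02 in LncGata6 mutant ISCs and 6.24 in wild-type ISCs, at least 1.91-fold lower. Its neighbour Ccl6 read 5.74 in LncGata6 mutant ISCs and 6.76 in wild-type ISCs, 2.03-fold lower, a difference of -1.02. Ccl5, Ccl9, Ccl6, Ccl3 and Ccl4 form 1 run of 5 adjacent members on chromosome 11, so neighbours differed in opposite directions. Ccl28 read 5.57 in LncGata6 mutant ISCs and 6.85 in wild-type ISCs, 2.43-fold lower and still detected. Ccrl2 read 4.30 in LncGata6 mutant ISCs and 5.68 in wild-type ISCs, at least 1.29-fold lower. Macrophage and monocyte markers averaged 4.56 in LncGata6 mutant ISCs and 5.50 in wild-type ISCs, with 2 of 7 called lower (Lyz2 and Ly6c2). Their summed linear level was 645 and 1781, and their part in the lower Ccr1 ligands was not tested. Crypt stem cell markers averaged 4.91 in LncGata6 mutant ISCs and 7.26 in wild-type ISCs, with 2 of 5 called lower (Lgr5 and Olfm4). Of the 8 general epithelial markers 2 were called higher (Krt20 and Vil1) and 2 lower (Krt18 and Krt19). This epithelial list averaged 9.51 in LncGata6 mutant ISCs and 8.92 in wild-type ISCs, with a summed linear level of 9784 and 4780. The part of these epithelial markers in the lower Ccl28 was not tested.

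The epithelial ligands other than Ccl28 differed by less than 1 (log2). Ccl25, the small-intestinal ligand of Ccr9, read 5.77 in LncGata6 mutant ISCs and 5.82 in wild-type ISCs. Cxcl16, a membrane-bound ligand of Cxcr6, read 5.36 in LncGata6 mutant ISCs and 5.74 in wild-type ISCs. Cx3cl1, a membrane-bound adhesive ligand, read 5.42 in LncGata6 mutant ISCs and 4.79 in wild-type ISCs. Cxcl9, an interferon-induced ligand of Cxcr3, read 6.07 in LncGata6 mutant ISCs and 5.31 in wild-type ISCs, and Cxcr3 read 3.83 and 3.27 in the same order.

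Ehf-/- ISCs were set against wild-type ISCs to ask which members differ without Ehf. Receptors of blood leukocytes and the ligands Ppbp and Ccl5 stood higher, and the epithelial ligands Ccl28 and Cxcl16 stood lower, with Ccl3 and Ccrl2. This is 6 of 57 members higher, against 2.18% of all genes, and 4 of 57 lower, against 3.79%. Both directions made 10 of 57 members, against 5.96%. The median difference was -0.05 over members and -0.20 over all genes. Receptors had a median of 0.64, with 4 of 20 higher, and ligands one of -0.40, with 2 of 37 higher.

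Cxcr2, which guides neutrophils towards CXC ligands, read 6.29 in Ehf-/- ISCs and 2.54 in wild-type ISCs, at least 1.59-fold higher. Ccr1, a receptor of neutrophils and monocytes for Ccl3, Ccl5, Ccl6 and Ccl9, read 6.04 in Ehf-/- ISCs and 3.44 in wild-type ISCs, at least 1.34-fold higher. Cxcr4, which retains leukocytes in bone marrow, read 7.83 in Ehf-/- ISCs and 6.45 in wild-type ISCs, 2.59-fold higher. Cxcr5, which leads B cells into follicles, read 5.57 in Ehf-/- ISCs and 2.92 in wild-type ISCs, with no fold because the brighter value lay under the limit of the wild-type array. The ligands of Cxcr4 and Cxcr5 were under the limit on both arrays, so no difference can be read from them. Cxcl12 read 2.91 in Ehf-/- ISCs and 2.81 in wild-type ISCs, and Cxcl13 read 3.44 and 3.40.

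Ppbp, which platelets store and which gives rise to ligands of Cxcr2, read 6.23 in Ehf-/- ISCs and 2.31 in wild-type ISCs, at least 1.52-fold higher. Its neighbour Pf4, the other abundant chemokine of platelet granules, read 4.91 in Ehf-/- ISCs and 4.15 in wild-type ISCs and was not detected. Of 6 other platelet and megakaryocyte markers 0 were detected on any array. They averaged 3.76 in Ehf-/- ISCs and 3.21 in wild-type ISCs, with a summed linear level of 95.6 and 63.4. Ccl5 read 8.58 in Ehf-/- ISCs and 6.66 in wild-type ISCs, 3.79-fold higher. T cell markers were called higher in 4 of 10 cases and lower in 2, the granzymes Gzma and Gzmb, with averages of 4.96 in Ehf-/- ISCs and 4.50 in wild-type ISCs and sums of 417 and 346. Their part in the Ccl5 level was not tested.

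Markers of several blood cell types moved with the receptors. Neutrophil markers averaged 10.12 in Ehf-/- ISCs and 2.51 in wild-type ISCs, with 8 of 8 called higher and a summed linear level of 11485 and 52.1. Macrophage and monocyte markers averaged 8.03 and 5.50 in the same order, with 6 of 7 called higher and sums of 5805 and 1781. B and plasma cell markers averaged 7.73 and 5.32, with 4 of 5 called higher and sums of 2018 and 228. Eosinophil and mast cell markers were called higher in 3 of 7 cases (Epx, Prg2 and Cpa3), with sums of 353 and 96.8. Beside them, the eosinophil receptor Ccr3 read 4.73 in Ehf-/- ISCs and 1.50 in wild-type ISCs, and the monocyte receptor Ccr2 read 4.33 and 2.09, both under the limit. The part of these cells in the receptor differences was not tested.

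Ccl28 had the most negative difference of the 57 members (-4.15), with 2.70 in Ehf-/- ISCs and 6.85 in wild-type ISCs, at least 3.16-fold lower. Cxcl16 read 3.62 in Ehf-/- ISCs and 5.74 in wild-type ISCs, at least 1.46-fold lower. Ccl25 read 4.94 in Ehf-/- ISCs and 5.82 in wild-type ISCs, and Cx3cl1 read 3.32 and 4.79, neither called. None of the 8 epithelial ligands was detected in Ehf-/- ISCs, against 3 in wild-type ISCs. General epithelial markers averaged 3.49 in Ehf-/- ISCs and 8.92 in wild-type ISCs, with 8 of 8 called lower and a summed linear level of 101 and 4780. Their part in the lower ligands was not tested. Ccl3 read 5.14 in Ehf-/- ISCs and 6.74 in wild-type ISCs, at least 2.93-fold lower, and Ccrl2 read 3.96 and 5.68, at least 1.40-fold lower. Ccl6 (6.09 and 6.76), Ccl9 (5.84 and 6.24) and the lymph node homing receptor Ccr7 (5.78 and 5.81) were detected on both arrays and differed by less than 1.

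**Figure D2:**
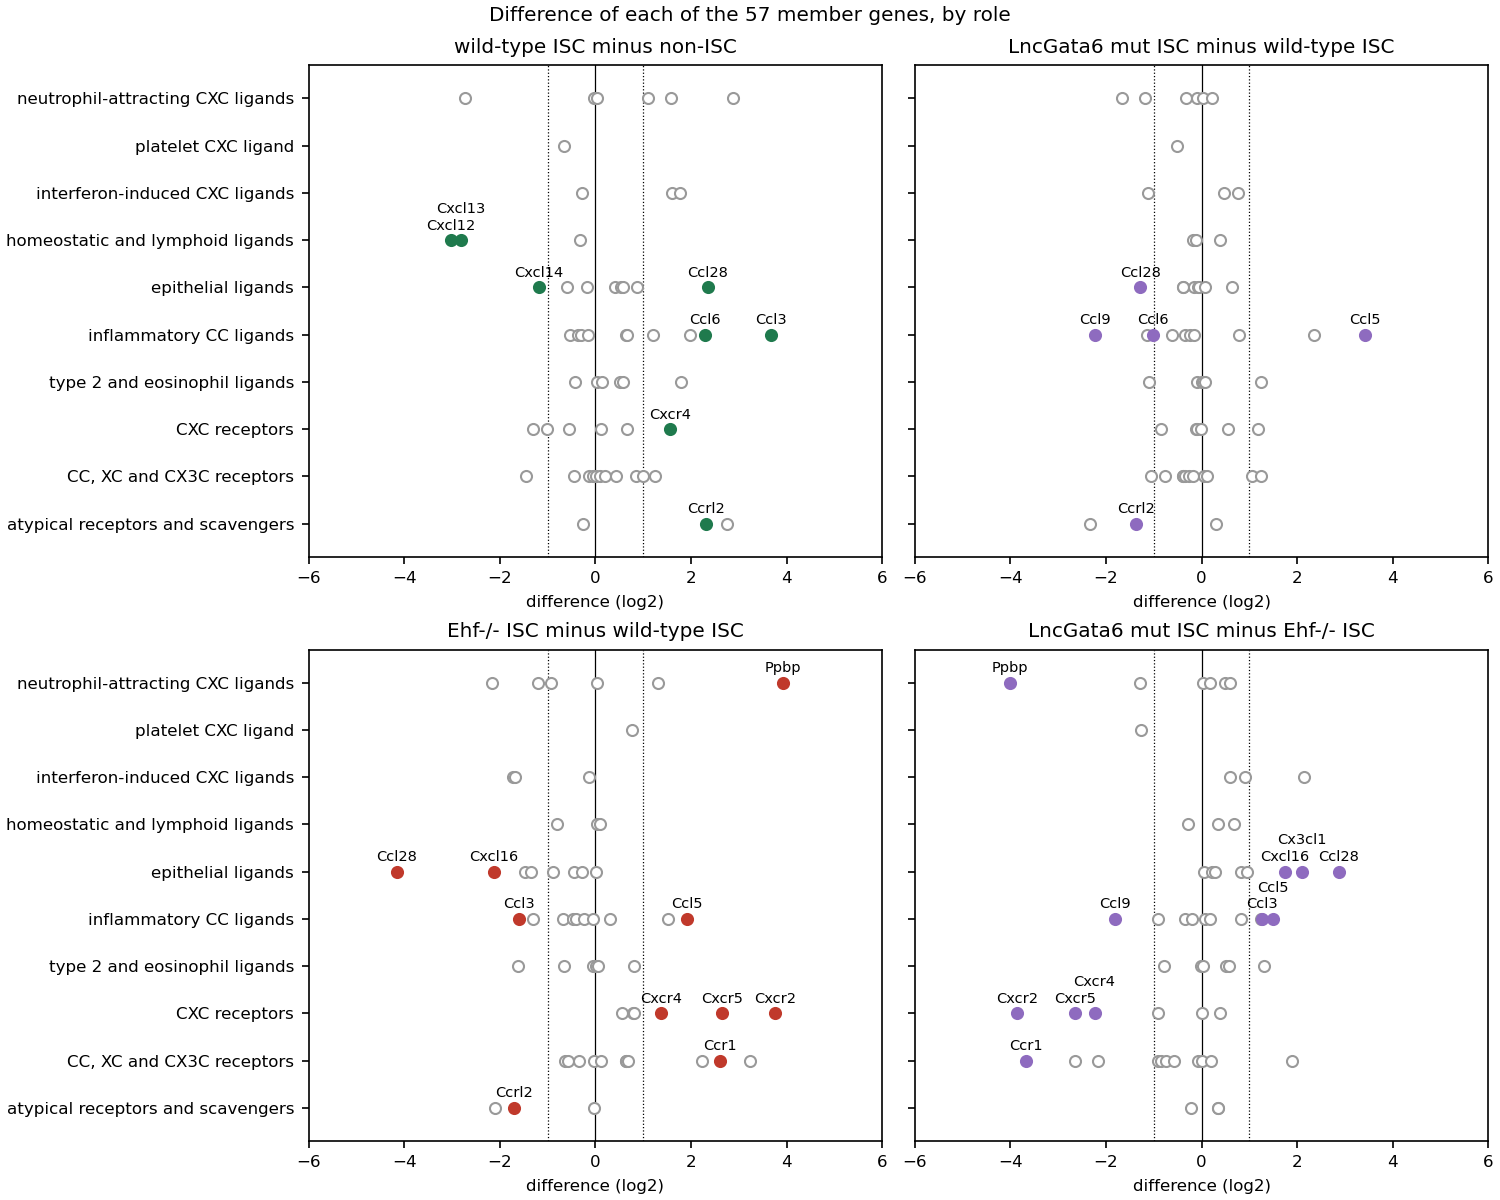
Difference (log2) of each of the 57 members in 4 comparisons, by role, with 1 point per gene. Filled, named points are called higher or lower, open points are not, dotted lines mark -1 and 1, and the point of Cxcr2 lies at 3.76 for Ehf-/- ISCs minus wild-type ISCs.

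The 2 mutant arrays were also set against each other, which does not involve the wild-type array they share above. LncGata6 mutant ISCs were higher than Ehf-/- ISCs in Ccl28, Ccl3, Ccl5, Cx3cl1 and Cxcl16, 5 of 57 members against 5.55% of all genes. They were lower in Ccl9, Ccr1, Cxcr2, Cxcr4, Cxcr5 and Ppbp, 6 of 57 against 3.06%. Both directions made 11 of 57 members, against 8.62%. The median difference was 0.08 over members and 0.13 over all genes. All 5 higher members were ligands, and 4 of the 6 lower members were receptors.

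Ccl28 read 5.57 in LncGata6 mutant ISCs and 2.70 in Ehf-/- ISCs, at least 1.30-fold higher. Cx3cl1 read 5.42 in LncGata6 mutant ISCs and 3.32 in Ehf-/- ISCs, at least 1.17-fold higher, and Cxcl16 read 5.36 and 3.62, at least 1.12-fold higher. Ccl5 read 10.08 in LncGata6 mutant ISCs and 8.58 in Ehf-/- ISCs, 2.81-fold higher. Ccl3 read 6.40 in LncGata6 mutant ISCs and 5.14 in Ehf-/- ISCs, at least 2.31-fold higher. Cxcr4 read 5.59 in LncGata6 mutant ISCs and 7.83 in Ehf-/- ISCs, 4.72-fold lower with both values detected. Ppbp (at least 1.89-fold), Cxcr2 (at least 1.98-fold), Ccr1 (at least 1.66-fold) and Cxcr5 (at least 1.20-fold) were undetected in LncGata6 mutant ISCs. Ccl9 read 4.02 in LncGata6 mutant ISCs and 5.84 in Ehf-/- ISCs, at least 1.44-fold lower. General epithelial markers averaged 9.51 in LncGata6 mutant ISCs and 3.49 in Ehf-/- ISCs (8 of 8 higher), T cell markers 8.22 and 4.96 (8 of 10 higher) and neutrophil markers 2.58 and 10.12 (8 of 8 lower). Their part in these differences was not tested.

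The members that carried these calls differed in how many arrays detected them. Ccl5 read 8.58 in Ehf-/- ISCs, 10.08 in LncGata6 mutant ISCs, 6.66 in wild-type ISCs and 6.96 in non-ISCs, so the 2 wild-type arrays lay close together and both mutants above them. Cxcr2 read 6.29, 2.43, 2.54 and 3.84 on the arrays in that order, and Ppbp read 6.23, 2.22, 2.31 and 5.03. Ccr1 read 6.04, 2.38, 3.44 and 2.19, and Cxcr5 read 5.57, 2.92, 2.92 and 3.94. These 4 genes were detected in Ehf-/- ISCs alone. Cxcl12 read 2.91, 2.62, 2.81 and 5.84, and Cxcl13 read 3.44, 3.79, 3.40 and 6.22. Cxcl14 read 4.02, 4.08, 4.01 and 5.20, so the 3 ISC arrays lay within 0.1 of each other below the non-ISC array. Ccl6 read 6.09, 5.74, 6.76 and 4.47, and Ccl9 read 5.84, 4.02, 6.24 and 5.60. These neighbours parted on 2 arrays, in LncGata6 mutant ISCs, where Ccl6 was detected and Ccl9 was not, and in non-ISCs, where Ccl9 was detected and Ccl6 was not.

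Several receptors and their ligands can be read side by side across the arrays. Ccl28 was highest in wild-type ISCs while its receptor Ccr10 was detected on no array (2.95 to 3.07). Cxcl12 was detected in non-ISCs only, where Cxcr4 (4.89) was not, and Cxcr4 was detected on the 3 arrays without Cxcl12. Cxcl13 and Cxcr5 likewise were detected on different arrays, non-ISCs and Ehf-/- ISCs. Ccl25 was detected in LncGata6 mutant ISCs, wild-type ISCs and non-ISCs (5.26), while Ccr9 stayed under the limit throughout. In Ehf-/- ISCs Ccr1 was detected together with Ccl5, Ccl6 and Ccl9, and Cxcr2 together with Ppbp. Ccr7 was detected in Ehf-/- ISCs (5.78) and wild-type ISCs (5.81) but not in non-ISCs (4.96). The Ccl21 genes, ligands of Ccr7 that are not members, have 9 features, several of which repeat the same values. Of these, 0, 2 and 9 reached the limit on these arrays in that order. The member Ccl19, also a ligand of Ccr7, was detected on no array (3.22 to 4.35).

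**Figure D3:**
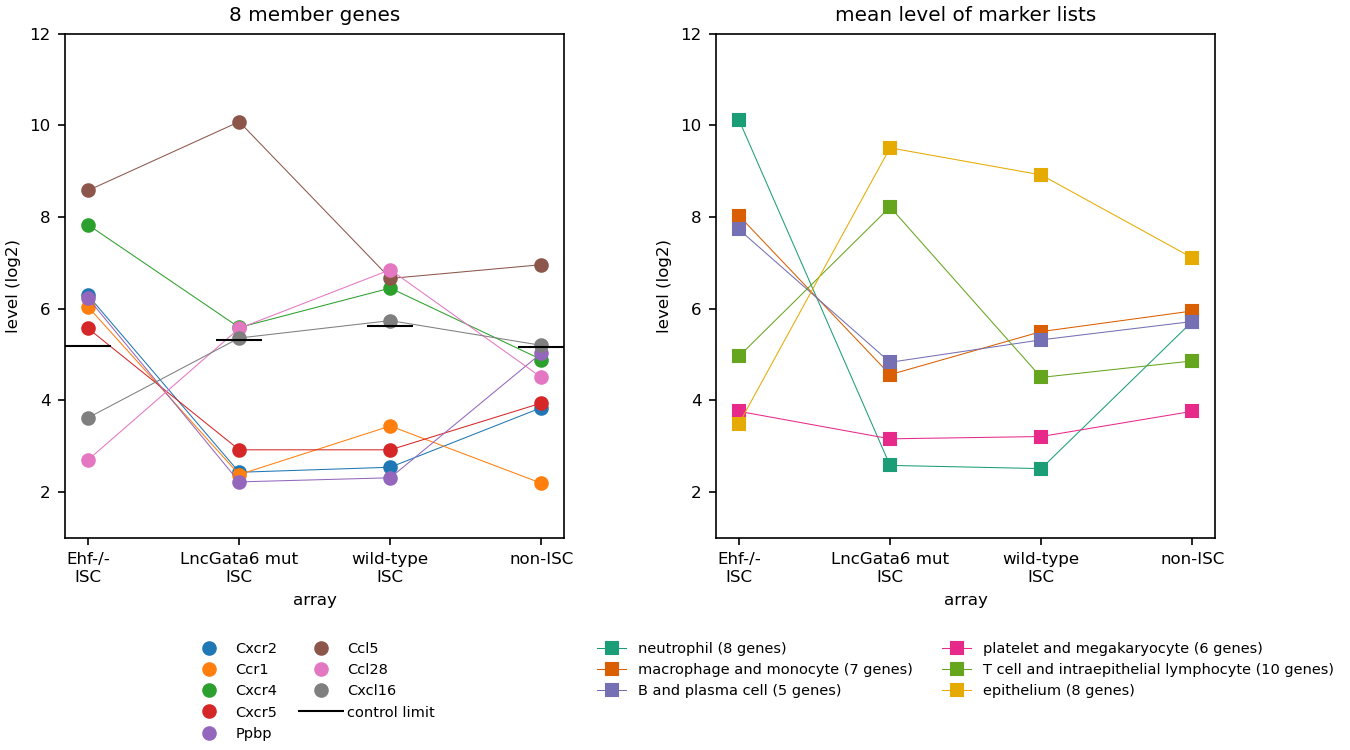
Level (log2) of 8 members with black bars at the control limit (left), and mean level of 6 marker lists (right), on each array, with thin lines joining values of 1 gene or list. Cxcr2, Ccr1, Cxcr5 and Ppbp are above the limit in Ehf-/- ISCs alone, where the neutrophil list averages 10.12 and the epithelial list 3.49.

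The signalling genes behind chemokine receptors were read from a list of G protein subunits, kinases, arrestins and cell movement regulators, of which 30 were measured. Against non-ISCs, wild-type ISCs had 3 of 30 higher and 1 lower, against 3.04% and 7.36% of all genes. Rgs1, which limits receptor signalling in lymphocytes, read 6.40 in wild-type ISCs and 2.59 in non-ISCs, at least 2.37-fold higher, and Plcb3, a phospholipase, was 3.62-fold higher. Rgs2 was also higher (at least 1.75-fold), and the receptor kinase Grk5 was lower, with a difference of -1.06.

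Against wild-type ISCs, LncGata6 mutant ISCs had 6 of 30 higher and 0 lower, against 2.61% and 2.56% of all genes, with a list median of 0.40 against -0.06 over all genes. Dpp4, an enzyme of the brush border that clips many chemokines, read 9.15 in LncGata6 mutant ISCs and 6.19 in wild-type ISCs, 7.82-fold higher. Rac2, a GTPase of blood cells, was 3.98-fold higher and Rgs1 was 3.25-fold higher. Dock2, which activates Rac in leukocytes, was at least 1.23-fold higher. The G protein subunits Gnb1 (2.05-fold) and Gng2 (at least 1.91-fold) completed the higher genes. T cell markers were called higher in 9 of 10 cases on the same array. Of the 8 general epithelial markers 2 were called higher (Krt20 and Vil1) and 2 lower (Krt18 and Krt19). The part of both marker lists in these differences was not tested.

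Against wild-type ISCs, Ehf-/- ISCs had 9 of 30 higher and 2 lower, against 2.18% and 3.79% of all genes, with a list median of 0.57 against -0.20 over all genes. Rac2 read 9.36 in Ehf-/- ISCs and 5.81 in wild-type ISCs, 11.7-fold higher, and Dock2 read 7.36 and 4.66, at least 3.34-fold higher. Rgs18, a regulator of platelets and blood cells, read 5.21 and 1.56, and the myeloid kinase Fgr read 5.57 and 3.46. Vav1, which activates Rac in blood cells, was at least 1.34-fold higher. Plcb3 read 4.78 in Ehf-/- ISCs and 8.05 in wild-type ISCs, at least 7.28-fold lower. Neutrophil (8 of 8), macrophage (6 of 7) and B cell markers (4 of 5) were called higher and epithelial markers lower (8 of 8), and their part in these differences was not tested. Between the mutants, LncGata6 mutant ISCs had 6 of 30 higher and 6 lower than Ehf-/- ISCs, against 5.55% and 3.06% of all genes, with Dpp4 at least 15.6-fold higher and Rac2 2.94-fold lower.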

How the data were processed

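Clariom D mouse arrays read total RNA of 4 samples. The authors deposited 1 log2 value per feature and array. Affymetrix Power Tools and RMA stand in the submitters' processing notes without versions or settings. Where RMA was run, a background model and a summary over probes shrink differences of dim features. The log2 scale was read from the values (-0.183 to 13.1). No genome build was given for the features.

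Of 72688 features, 30604 carried 1 distinct symbol in the platform annotation and 2146 several. The feature with the highest mean stood for a gene. Annotation symbols were used as given. Differences were computed with pandas (2.3.3) in Python (3.11.15), with 1 array per group and no test. The limit came from the 5222 negative controls, whose medians were 2.23 to 2.42. Counting was tested only on simulated shifts larger than the threshold in genes well above the limit, so the test does not cover members near it. Named are members called in a comparison or detected on all arrays, undetected members in lists, and up to 6 of the largest differences among signalling genes. Members named beyond this were chosen after their values were seen. The members, lists and limits were chosen with earlier results of these data known. The alternatives were 2 scalings, 2 other limits, the median of a gene's features and updated symbols.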

Additional observations from a re-analysis of the deposited data

How the results depend on the processing

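Of 34 called differences of members, 34 kept their call under median centring and 32 under quantile normalization. All 34 also stood under the median of features and under updated symbols, which check them little. Each member has 1 feature, so the median of features could not change a call. Updated symbols change gene names and not array values or limits. With the 75th percentile of all genes as the limit 33 kept their call, and with the 99th percentile of negative controls 5 did. Those 5 were the Ccl5 differences and 2 of Cxcr4. Quantile normalization added Ccr7 in 2 comparisons and ended the calls of Cxcl14 (wild-type ISCs against non-ISCs) and Ccl3 (LncGata6 mutant against Ehf-/- ISCs). The 99th percentile limits were 7.71 to 8.20, which few values reach. With them, wild-type ISCs against non-ISCs had 0 members higher and 0 lower, against 0.989% and 1.76% of all genes. LncGata6 mutant against wild-type ISCs had 1 higher and 0 lower, against 0.69% and 0.962%. Ehf-/- against wild-type ISCs had 2 higher and 0 lower, against 0.491% and 0.594%. LncGata6 mutant against Ehf-/- ISCs had 1 higher and 1 lower, against 1.21% and 1.19%. With the 75th percentile, wild-type ISCs had 9 members higher than non-ISCs, against 3.85% of all genes. LncGata6 mutant ISCs had 2 higher (with Xcl1) and 7 lower than wild-type ISCs, against 2.84% and 3.04%. Ehf-/- ISCs had 7 lower than wild-type ISCs, against 5.29%. The added lower genes were Ackr1, Cxcl1 and Cxcl2 in both mutants. The median difference of the members was 0.25 for wild-type ISCs against non-ISCs under median centring. For Ehf-/- against wild-type ISCs it was 0.11 under quantile normalization and 0.15 under median centring, and for LncGata6 mutant against Ehf-/- ISCs -0.04 and -0.11, so both signs turned, since array medians over all genes of 3.24 to 3.56 were brought together. Updated symbols added Ackr2 and Ackr3, neither detected nor called. No paired analysis was possible because each group has 1 array. No array can be left out for the same reason, and signal over background limits all but the brightest members.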

Other observations

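Features that carry several symbols of near-identical genes were left out of the members. The 9 features of the Ccl21 genes, ligands of Ccr7 made by lymphatic endothelium and lymph node stroma, read 3.72 to 4.02 in Ehf-/- ISCs, 3.53 to 3.74 in LncGata6 mutant ISCs, 5.23 to 5.67 in wild-type ISCs and 5.89 to 6.25 in non-ISCs. Of these features 0, 0, 2 and 9 reached the control limit in that order. Several of them read the same on every array to 2 decimals, so they are not 9 separate readings. Endothelial markers averaged 3.25, 3.11, 5.11 and 5.83 on the same arrays, and their part in the Ccl21 levels was not tested. The 5 features of Ccl19 shared with its copies were detected on no array (4.20 to 4.73 in non-ISCs). Among the 5 shared features of the skin ligand Ccl27, 2 were detected, both in non-ISCs (up to 5.51).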
